A study of Mus musculus with 6 samples.

Results

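The glycolysis and hypoxia response genes described here are 35 genes, chosen by symbol, that take up and break down glucose, dispose of the pyruvate and lactate made from it, sense oxygen, or belong to the classical transcriptional response to low oxygen. Of the 35 symbols, 33 have a row among the 21686 genes of the expression table, in 34 rows because Aldoa has 2, and Slc16a3 and Adm were not analysed here. Their expression was measured by RNA sequencing in MC3T3-E1 Subclone 14 cells, a single clone of a mouse line of osteoblast precursors, in 6 libraries. The control group received 100 µL of PBS, the dexamethasone group 10 µM of this synthetic glucocorticoid, and the dexamethasone + EPC-EVs group 10 µM dexamethasone with 100 µg of extracellular vesicles from endothelial progenitor cells of mouse bone marrow, each for 72 hours and with 2 libraries. Cell type and time are those of the sample labels, whereas the description of the series names fibroblasts and a shorter exposure. The comparison of dexamethasone with control asks what the steroid does to these genes, and that of dexamethasone + EPC-EVs with dexamethasone asks what the vesicles add.

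Glycolysis splits glucose into pyruvate in a chain of enzymes, with hexokinase, phosphofructokinase and pyruvate kinase as its steps of tightest control, and lactate dehydrogenase reduces pyruvate to lactate so that the chain can run on without mitochondria. Osteoblasts are known for a high rate of this aerobic glycolysis. Hypoxia-inducible factors (HIF) are transcription factors whose alpha subunits are hydroxylated and destroyed when oxygen is present, and which when stable bind short hypoxia response elements and raise most glycolytic genes together with genes for vessel growth, pH balance, collagen modification and mitophagy.

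The libraries held 5146760 to 6583735 counts in the control and dexamethasone groups and 12864009 and 13182014 in dexamethasone + EPC-EVs, so the limit for a gene without counts, set at 3 counts a library for counting error only, ran from 0.228 to 0.583 CPM, which are counts scaled to the library size. Replicates spread beyond sampling noise in all 3 groups (chi-square divided by its degrees of freedom 7.17 for dexamethasone, 16.6 for control and 20.1 for dexamethasone + EPC-EVs). The dexamethasone + EPC-EVs libraries stood apart in composition, with 0.465% and 0.727% of counts on mitochondrially encoded genes against 5.55% to 8.62% in the other 4, and 5.88% and 6.69% on the noncoding RNA Gm26917 against 0.252% to 1.14%, and the labels give no batch that could be told apart from the vesicles. All 10 osteoblast markers have a row, with a summed level of 15825 and 17385 CPM in control, 17005 and 17455 in dexamethasone and 29231 and 23388 in dexamethasone + EPC-EVs. Spp1, Col1a1 and Col1a2 made up most of it and moved in opposite directions, as Spp1 was lower with EPC-EVs than in dexamethasone and Col1a1, Col1a2 and Sparc were higher, whereas the mature osteoblast markers Alpl, Bglap and Ibsp stayed at or below 6.57 CPM. Of 11 endothelial markers 9 have a row, summing to 538 and 483 CPM in control, 479 and 488 in dexamethasone and 410 and 333 in dexamethasone + EPC-EVs, almost wholly from Cd34 and Flt1, with Cdh5 and Pecam1 at or near 0. Of 13 blood cell markers 6 have a row, and their sum was 18.1 and 15.1 CPM in control, 15.9 and 22.8 in dexamethasone and 40.4 and 85.9 in dexamethasone + EPC-EVs, where Cd14 was highest and Csf1r reached 37.0 CPM in replicate 2 alone. The part of these differences in the results that follow was not tested, and in RNA from whole cultures fewer cells of a type and less RNA per cell cannot be told apart.

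Levels of different genes were compared in the deposited FPKM, which divide a count by gene length and library size. Gapdh and Pkm ranked the first and the second of the members in each group, at 769 and 274 FPKM in control, 1098 and 388 in dexamethasone and 441 and 429 in dexamethasone + EPC-EVs. Pgam1, Pgk1 and Aldoa were also among the highest enzymes in each group, and Hif1a stood at 172, 119 and 134 FPKM in the 3 groups. The lengths behind these FPKM were longer than the GENCODE transcript for most members (5001 against 2432 bases for Pkm), so the order of levels depends on the length used. Few counts left 4 rows without a test in any comparison, namely Epas1, the gene of a second HIF alpha subunit, with counts of 0, 0, 1, 0, 0 and 0 over the libraries, the aldolase Aldoc with 6, 0, 0, 0, 4 and 0, the second Aldoa row with 0, 0, 2, 4, 14 and 12, and the HIF prolyl hydroxylase Egln3, itself a hypoxia-responsive gene. Egln3 had no count in control or dexamethasone + EPC-EVs and 6 and 20 counts in the dexamethasone libraries, at least 3.69-fold higher than in control and at least 8.58-fold higher than in dexamethasone + EPC-EVs when 3 counts per library stand for 0. With dexamethasone replicate 1 alone these bounds were 1.70 and 3.96. The other 30 rows passed the filter in each comparison. Gapdh, Pfkm, Pfkp, Tpi1, Aldoa, Ankrd37 and Mxi1 overlap a protein-coding gene on the other strand and Hif1a one on its own strand, and whether the counting used the strand is not given in the sources used here, so some of their counts can belong to the neighbour.

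**Figure D1:**
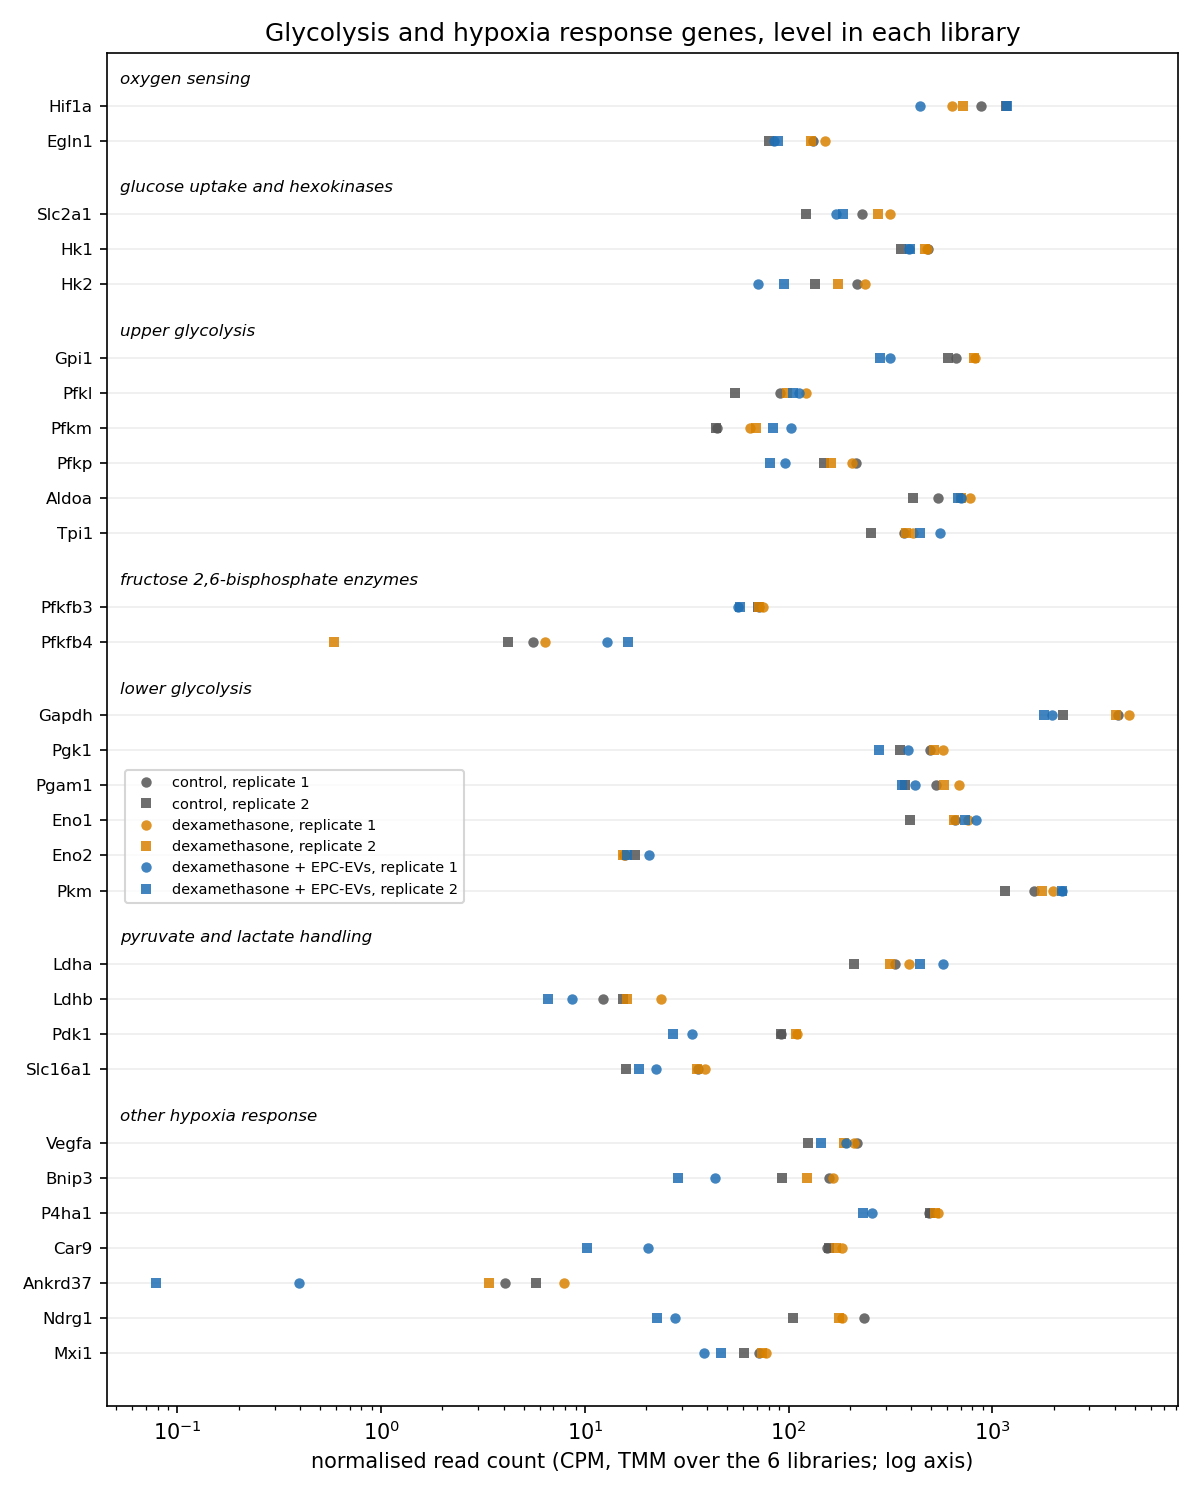
Normalised read count of the 30 tested members in each of the 6 libraries, on a log axis in CPM and grouped by role; colour gives the group and shape the replicate. In the bottom group the dexamethasone + EPC-EVs points of Car9, Ndrg1, Bnip3 and Ankrd37 lie to the left of the other 4 libraries, while those of Pkm and Ldha lie to the right of them.

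Where EPC-EVs were added to dexamethasone, most hypoxia response genes and part of the glycolytic chain were lower, while Pfkfb4 and Ldha were called higher, both with calls that were lost in several alternatives, and the remaining members were not called. Of the 30 members tested, EPC-EVs went with lower expression in 17 and higher in 2, relative to dexamethasone, at an adjusted p under 0.05 in edgeR's quasi-likelihood test, while 18.9% of all genes tested were lower and 20.9% higher. The median log2 fold change was −0.76 over the members and 0.01 over all genes. The falls ran from 1.67-fold in Egln1 to 12.0-fold in Car9, with a larger one in the sparsely counted Ankrd37. After a correction of each library for GC content and transcript length the split was 23 lower and 0 higher, beside 15.6% and 16% of all genes in that fit, and 12 of the 19 calls were kept in every other fit tried.

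The hypoxia response members outside glycolysis fell the most, with 6 of 7 tested members lower, beside 18.9% of all genes. Their median change was −2.04 on the log2 scale. Car9 (ENSMUSG00000028463.14, chromosome 4 from 43506966 to 43513729), a carbonic anhydrase on the cell surface that is a standard marker of hypoxic cells, was at 154 and 158 CPM in control, 184 and 172 in dexamethasone and 20.4 and 10.2 in dexamethasone + EPC-EVs. Both vesicle libraries were far below the other 4. The log2 fold change against dexamethasone was −3.58 ± 0.27 (SE, n = 2 libraries per group), and edgeR's quasi-likelihood test gave an adjusted p of 3.52e-06.

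Ndrg1 (ENSMUSG00000005125.12, chromosome 15 from 66929318 to 66969640), a stress-induced gene that is one of the strongest responders to hypoxia and iron loss, was at 233 and 105 CPM in control, 183 and 176 in dexamethasone and 27.6 and 22.6 in dexamethasone + EPC-EVs. The vesicle libraries did not overlap with either group, whereas control and dexamethasone did. Its log2 fold change was −2.89 ± 0.17 (SE, n = 2), with an adjusted p of 6.35e-07 by the edgeR test. Bnip3 (ENSMUSG00000078566.8, chromosome 7 from 138890836 to 138909519), a mitochondrial protein that recruits the autophagy machinery, was at 157 and 92.8 CPM in control, 165 and 123 in dexamethasone and 43.7 and 28.8 in dexamethasone + EPC-EVs. All 4 libraries without vesicles were above those with them, and the log2 fold change was −2.04 ± 0.22 (SE, n = 2; adjusted p of 3.48e-05, edgeR).

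P4ha1, a catalytic subunit of the prolyl hydroxylase that stabilises collagen, was at 489 and 496 CPM in control, 543 and 523 in dexamethasone and 256 and 231 in dexamethasone + EPC-EVs, which is −1.18 ± 0.12 on the log2 scale (SE, n = 2). Replicates were close in each group, and the vesicle libraries lay apart from the rest. Mxi1, which encodes an antagonist of Myc, was at 71.7 and 60.5, 77.9 and 74.2, and 38.4 and 46.5 CPM in control, dexamethasone and dexamethasone + EPC-EVs, and fell by 0.89 on the log2 scale. Ankrd37, a small ankyrin repeat protein used as a hypoxia marker, had 25 and 29, 54 and 23, and 5 and 1 counts. These few counts gave a log2 fold change of −4.54 ± 0.99 (SE, n = 2), and without dexamethasone replicate 1 the call was lost, at −3.80 with an adjusted p of 0.0859 (edgeR, n = 2 against 1). Vegfa, the main growth factor of blood vessels and itself a HIF target, was the member of this group that was not called: 217 and 125 CPM in control, 211 and 188 in dexamethasone and 192 and 145 in dexamethasone + EPC-EVs. Its groups overlapped, and the log2 fold change was −0.29 with a 95% interval from −0.60 to 0.02, and it was called lower with the GC and length trend removed, at −0.47, and without vesicle replicate 1, at −0.49.

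Among the genes that bring glucose in and trap it, Slc2a1 and Hk2 fell and Hk1 did not pass the threshold. Slc2a1, the glucose transporter GLUT1, was at 228 and 121 CPM in control, 314 and 274 in dexamethasone and 172 and 185 in dexamethasone + EPC-EVs. Dexamethasone lay above both other groups, and the 2 vesicle libraries lay between the control replicates. The log2 fold change of vesicles against dexamethasone was −0.77 ± 0.13 (SE, n = 2; adjusted p of 8.29e-04, edgeR). Hk2, the inducible hexokinase that binds mitochondria, was at 217 and 135, 237 and 174, and 70.8 and 94.7 CPM in control, dexamethasone and dexamethasone + EPC-EVs, or −1.36 ± 0.19 on the log2 scale (SE, n = 2). The constitutive hexokinase Hk1 was at 486 and 357, 477 and 465, and 392 and 393 CPM, with a log2 fold change of −0.31 ± 0.12 (SE, n = 2) and an adjusted p of 0.0507 by the edgeR test, just past the threshold. It was called lower under 7 of 14 alternatives, at −0.27 to −0.36 in all of the 14 but the GC and length correction, where it was −0.88. Hk2 thus went from 41.5% and 34.9% of the hexokinase FPKM in dexamethasone to 20.5% and 25.6% with EPC-EVs, against 38.9% and 35.04% in control.

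The upper part of the chain, from glucose phosphate to the triose phosphates, was divided, with 2 of 6 tested members lower, none higher, beside the 18.9% and 20.9% of all genes, and a median change of −0.10 on the log2 scale. Gpi1 (ENSMUSG00000036427.5, chromosome 7 from 34201330 to 34230336), the isomerase of the second step, was at 661 and 609 CPM in control, 822 and 813 in dexamethasone and 314 and 282 in dexamethasone + EPC-EVs. Replicates differed little and the 3 groups did not overlap. Its log2 fold change was −1.503 ± 0.12 (SE, n = 2; adjusted p of 4.90e-06, edgeR). Pfkp, the platelet type of phosphofructokinase, was at 215 and 150.1, 206 and 162, and 96.2 and 80.8 CPM, a log2 fold change of −1.10 ± 0.16 (SE, n = 2).

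The other phosphofructokinases were not called. Pfkm, the muscle type, was at 44.8 and 44.0 CPM in control, 64.6 and 69.2 in dexamethasone and 103 and 83.8 in dexamethasone + EPC-EVs, so the 3 groups did not overlap and the vesicle libraries were the highest. Against dexamethasone its log2 fold change was 0.44 with a 95% interval from 0.11 to 0.76 and an adjusted p of 0.0564 (edgeR, n = 2), and after the GC and length trend was removed it was −0.03, whereas without a filter on low counts, at 0.47, and without vesicle replicate 2, at 0.60, it was called higher. Pfkl, the liver type, was at 90.9 and 54.5, 122 and 97.8, and 113 and 105 CPM, with overlapping dexamethasone and vesicle libraries and a log2 fold change of −0.06, but with the GC and length trend removed it was called lower, at −0.69. Pfkp made up 35.8% and 32.7% of the phosphofructokinase FPKM in control, 27.6% and 24.1% in dexamethasone and 12.2% and 12.0% in dexamethasone + EPC-EVs, and Pfkm 33.8% and 43.4%, 39.4% and 46.7%, and 59.2% and 56.6%. These shares divide Pfkp by 13401 bases and Pfkm by 2957, and by counts alone Pfkp took a mean of 60.8%, 50.8% and 30.4% of the step in the 3 groups, so its order against Pfkm depends on the length and its decline does not.

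Aldoa and Tpi1 close the upper part. The main Aldoa row, the aldolase that cuts the sugar into trioses, was at 541 and 410.2 CPM in control, 777 and 703 in dexamethasone and 705 and 679 in dexamethasone + EPC-EVs. The 2 treated groups overlapped and lay above control, and the log2 fold change between them was −0.14 with a 95% interval from −0.37 to 0.08, but with the GC and length trend removed it was −0.82 and called lower. Tpi1, the triose phosphate isomerase, was at 368 and 254, 406 and 376, and 557 and 444 CPM, highest in the vesicle libraries, with a log2 fold change of 0.31 ± 0.14 (SE, n = 2) and an adjusted p of 0.0897 by the edgeR test. It was called higher without a filter on low counts, at 0.34, and without vesicle replicate 2, at 0.48, and was −0.09 with the GC and length trend removed.

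The 2 members that make and remove the regulatory fructose bisphosphate, an activator of phosphofructokinase, went opposite ways in their values. Pfkfb4 had 34 and 21 counts in control, 44 and 4 in dexamethasone and 162 and 208 in dexamethasone + EPC-EVs, and rose by 2.01 ± 0.70 on the log2 scale (SE, n = 2; adjusted p of 0.0409, edgeR). Its dexamethasone replicates were 6.41 and 0.589 CPM, and without replicate 2 the log2 fold change was 1.14 and not called. Pfkfb3 was at 71.8 and 71.1, 74.98 and 72.0, and 56.7 and 58.0 CPM, lowest in the vesicle libraries, with a log2 fold change of −0.40 ± 0.16 (SE, n = 2) and an adjusted p of 0.0710 (edgeR), and it was called lower under 4 alternatives, at −0.45 with upper quartile normalization, library totals or a stricter filter and at −0.53 with the GC and length trend removed.

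**Figure D2:**
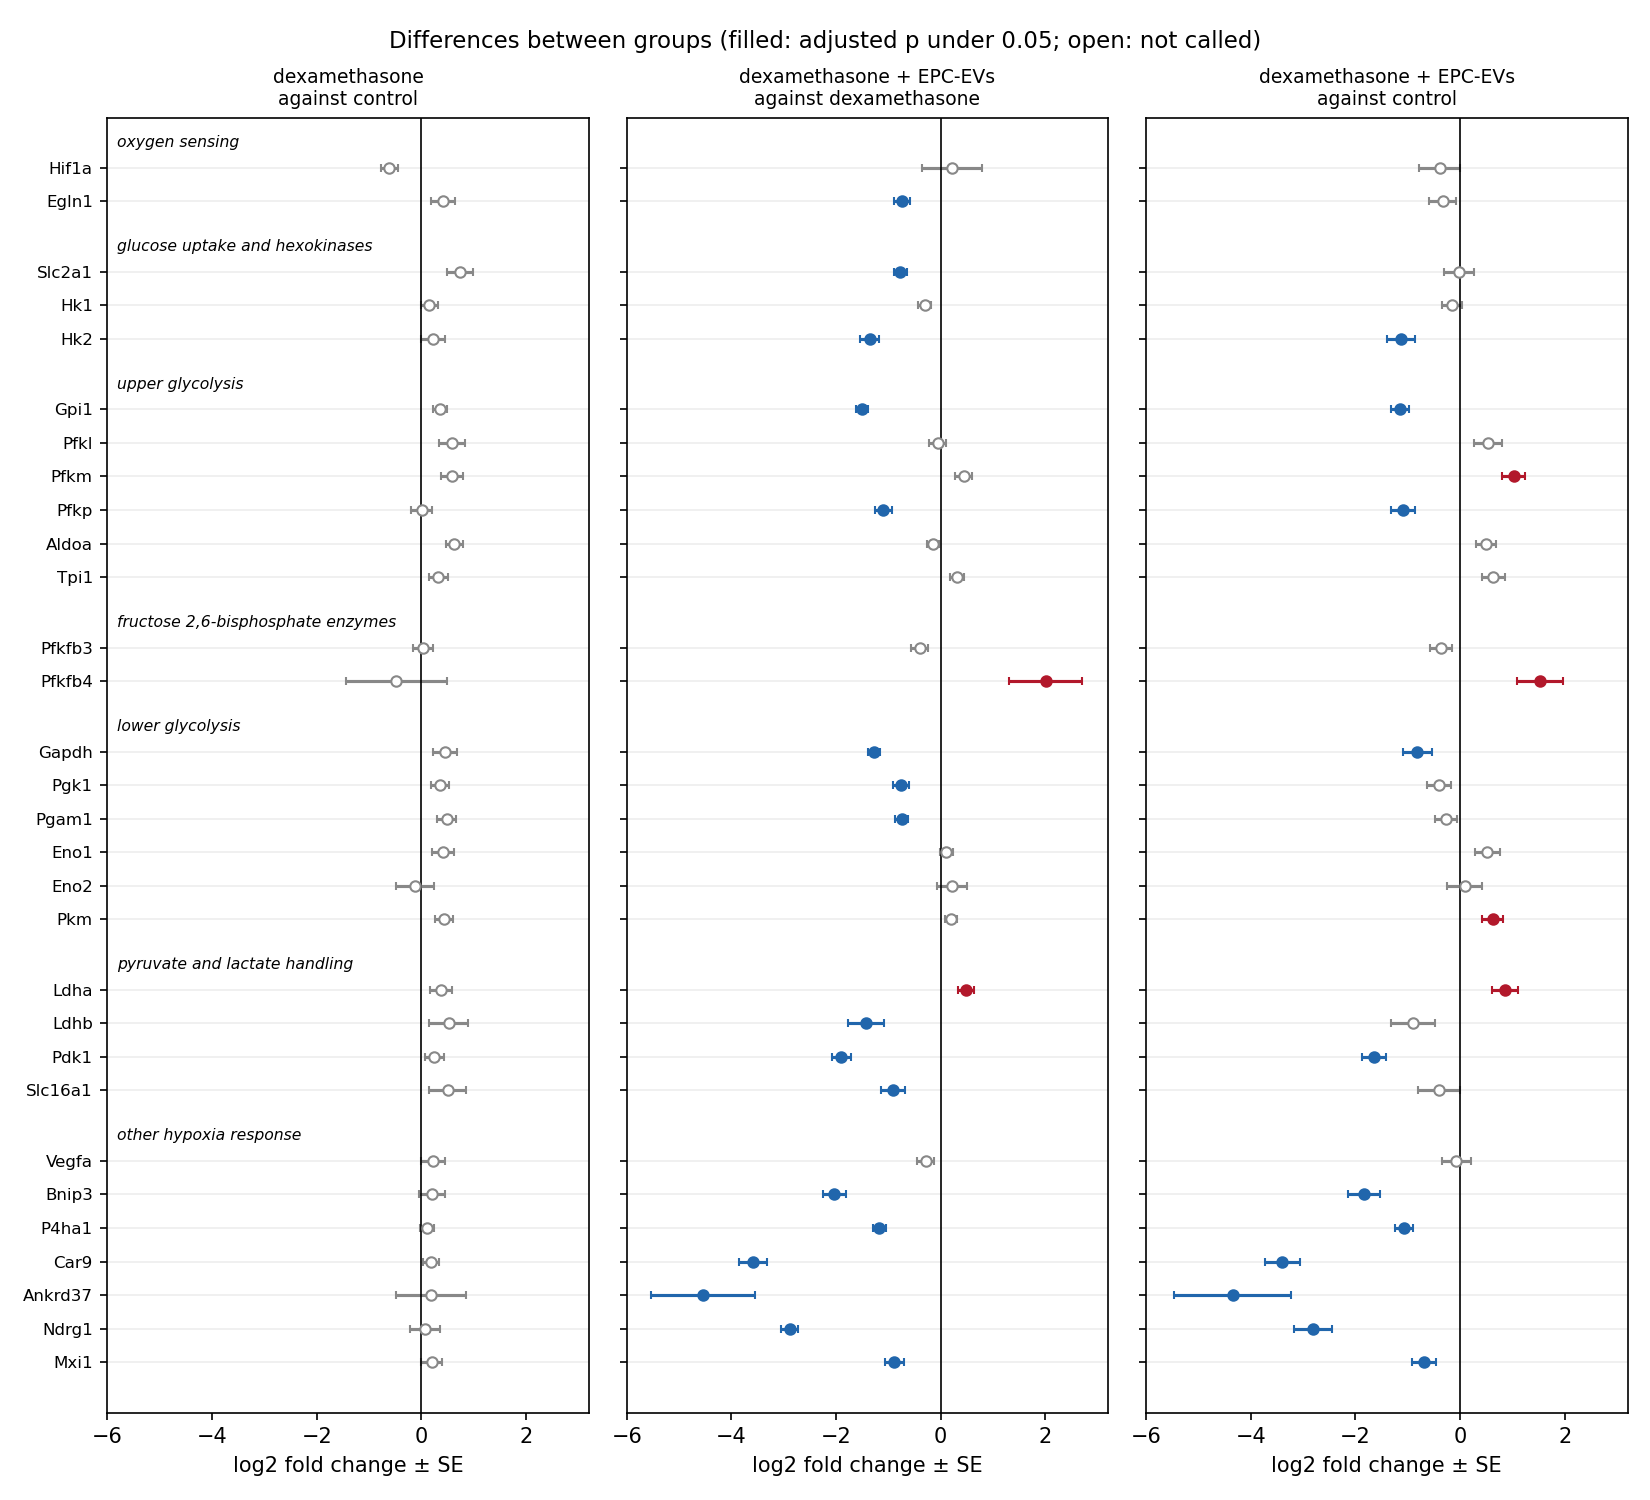
Log2 fold changes ± SE (horizontal axis) of the 30 tested members for the 3 comparisons, by role; filled points are called at an adjusted p under 0.05 by edgeR's quasi-likelihood test and open points are not. The left panel has no filled point, and the middle panel has 17 to the left of 0 and 2 to the right.

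In the lower part, from triose phosphate to pyruvate, 3 of 6 tested members were lower and none higher, beside the same 18.9% and 20.9%. Gapdh (ENSMUSG00000057666.18, chromosome 6 from 125161715 to 125166467), the dehydrogenase that yields NADH and a gene often taken as a constant reference, was at 4167 and 2232 CPM in control, 4686 and 4053 in dexamethasone and 1956 and 1786 in dexamethasone + EPC-EVs. The vesicle libraries were the lowest, and control replicate 1 lay among the dexamethasone libraries while control replicate 2 lay near the vesicle ones. The log2 fold change was −1.27 ± 0.12 (SE, n = 2; adjusted p of 1.22e-05, edgeR), a 2.41-fold fall.

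Pgk1, which makes the first ATP of the pathway, was at 496 and 352, 574 and 517, and 386 and 279 CPM in control, dexamethasone and dexamethasone + EPC-EVs, and Pgam1, the phosphoglycerate mutase, at 530.3 and 375, 686 and 582, and 417 and 362. For both, dexamethasone lay above the vesicle libraries and the control replicates overlapped with the latter, with log2 fold changes of −0.76 ± 0.15 and −0.75 ± 0.13 (SE, n = 2). Without dexamethasone replicate 1 the call of Pgk1 was lost, at −0.67. The pseudogene Pgam1-ps2 held 113 to 451 counts against 1883 to 5265 for Pgam1, and reads of such near-identical copies can be split by the counting.

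None of the enzymes of the last steps was called. Eno1, the main enolase, was at 659 and 395 CPM in control, 763 and 646 in dexamethasone and 829 and 737 in dexamethasone + EPC-EVs, with overlapping treated groups and a log2 fold change of 0.11 with a 95% interval from −0.14 to 0.35. Eno2, the neuronal enolase and a HIF target, was at 15.3 to 20.7 CPM over the 6 libraries and supplied 2.28% to 4.87% of the enolase FPKM. Pkm, the pyruvate kinase, was at 1611 and 1151, 1983 and 1756, and 2206 and 2205 CPM, so the 3 groups did not overlap and the vesicle libraries were the highest, but its log2 fold change against dexamethasone was 0.19 with a 95% interval from −0.02 to 0.41 and was not called. With the GC and length trend removed Eno1 and Pkm were instead called lower, at −0.60 and −0.52. The table counts Pkm as a gene, so its M1 and M2 splice forms were not separated. The summed level of the glycolytic enzymes, hexokinases not included, was 9401 and 6045 CPM in control, 11105 and 9791 in dexamethasone and 7704 and 7061 in dexamethasone + EPC-EVs. Without Gapdh the sums were 5234 and 3813, 6419 and 5738, and 5748 and 5275, and the dexamethasone and vesicle libraries overlapped, so the lower sum came mostly from that gene.

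Pyruvate and lactate handling shifted in both directions. Pdk1, a kinase that inhibits pyruvate dehydrogenase and a HIF target, was at 91.5 and 92.0 CPM in control, 109.9 and 109 in dexamethasone and 33.5 and 27.2 in dexamethasone + EPC-EVs. Replicates nearly coincided in control and in dexamethasone and the vesicle libraries were far below both, and the log2 fold change was −1.90 ± 0.18 (SE, n = 2; adjusted p of 1.30e-05, edgeR). Ldha (ENSMUSG00000063229.15, chromosome 7 from 46841475 to 46855627), the dehydrogenase subunit that favours lactate, went the other way: 335 and 210.4 CPM in control, 391 and 316 in dexamethasone and 576 and 443 in dexamethasone + EPC-EVs. Its vesicle libraries were above the other 4, and it rose by 0.48 ± 0.15 on the log2 scale (SE, n = 2; adjusted p of 0.0268, edgeR), a call that was lost when any of 3 libraries was left out, when all 6 libraries shared a fit and when the GC and length trend was removed. The log2 fold change was 0.66 without dexamethasone replicate 1, 0.34 without dexamethasone replicate 2, 0.29 without vesicle replicate 1, 0.50 with all 6 libraries and 0.24 with the correction.

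Ldhb, the subunit that favours pyruvate, was at 12.2 and 15.3, 23.6 and 16.0, and 8.63 and 6.59 CPM, a log2 fold change of −1.43 ± 0.35 (SE, n = 2), and its call was lost without dexamethasone replicate 1, at −1.10. Ldha therefore made up 88.7% and 90.3% of the lactate dehydrogenase FPKM in dexamethasone, 96.9% and 97.0% with EPC-EVs and 92.9% and 86.7% in control. Slc16a1, the lactate transporter MCT1, was at 36.0 and 15.9, 38.7 and 35.6, and 22.3 and 18.4 CPM, lower in both vesicle libraries than in both dexamethasone libraries, with a log2 fold change of −0.92 ± 0.23 (SE, n = 2), and its call was lost under 3 alternatives, all 6 libraries in a fit, the GC and length correction and leaving out dexamethasone replicate 1.

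**Figure D3:**
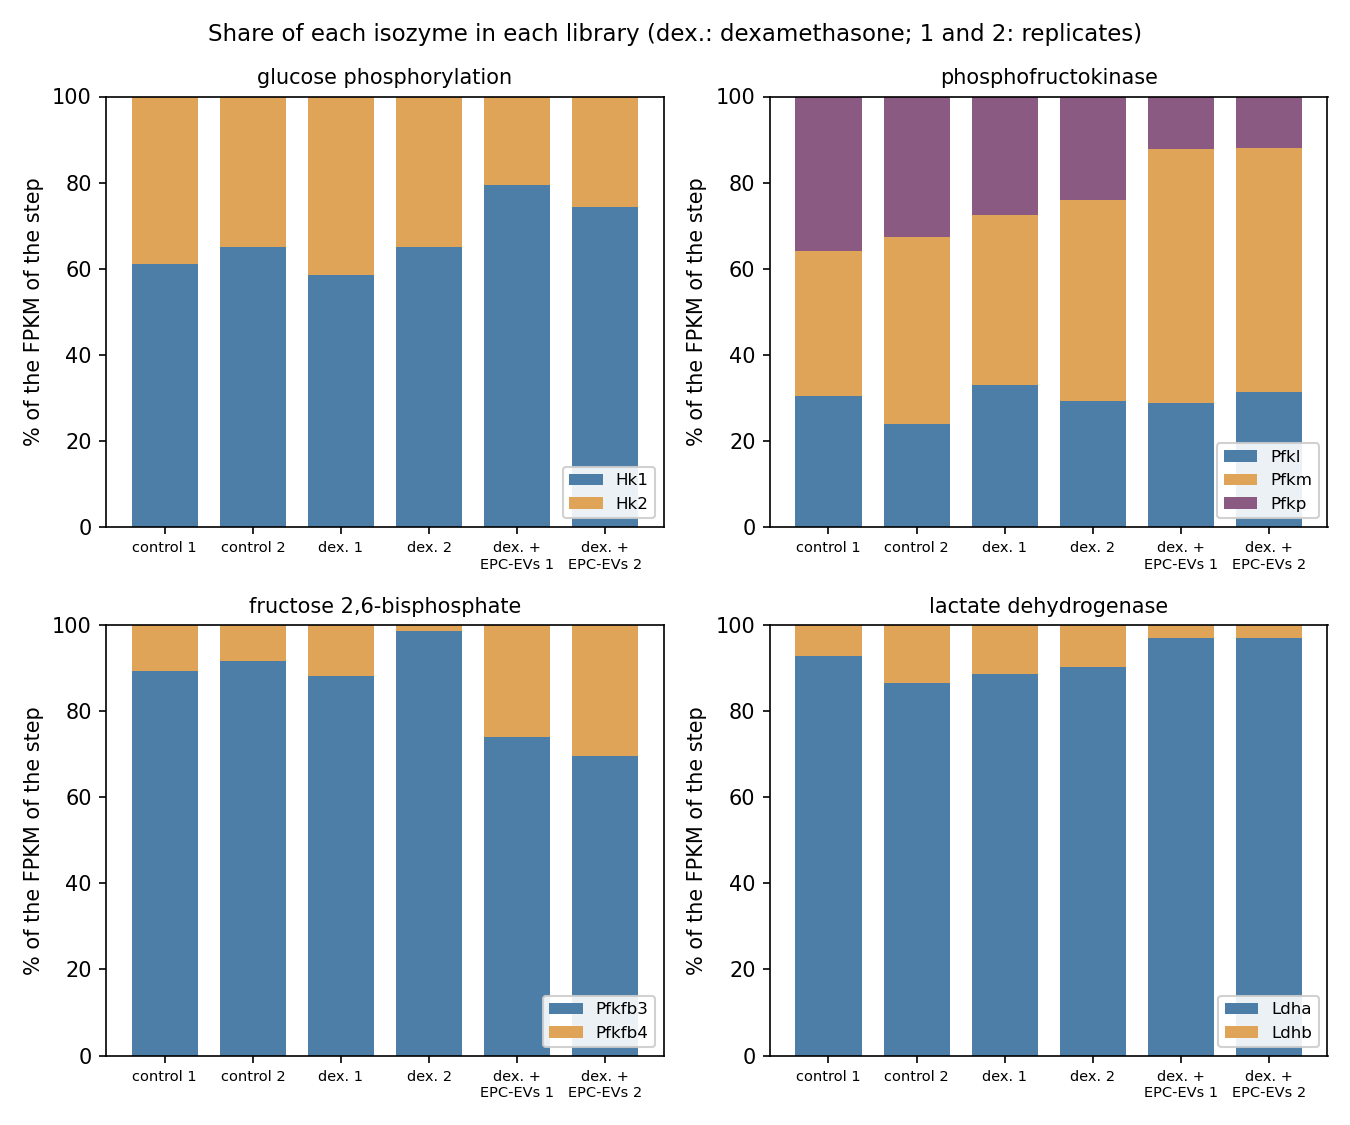
Share (vertical axis, % of the FPKM summed over the isozymes of a step) of each isozyme in each library, for hexokinase, phosphofructokinase, the enzymes of fructose bisphosphate and lactate dehydrogenase. In the 2 dexamethasone + EPC-EVs libraries Hk2, Pfkp and Ldhb take smaller shares and Pfkfb4 a larger one than in the other 4.

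The oxygen sensors themselves gave no common direction. Hif1a (ENSMUSG00000021109.13, chromosome 12 from 73901375 to 73947530), the oxygen-regulated alpha subunit, was at 883 and 1175 CPM in control, 635 and 721 in dexamethasone and 441 and 1187 in dexamethasone + EPC-EVs. The vesicle replicates lay on either side of all the other libraries, so the log2 fold change was 0.22 with a 95% interval from −0.91 to 1.34. Without replicate 2 of that group it was −0.65 and without replicate 1 it was 0.77, each called, so that 1 library decides its direction. The regulation of this subunit by oxygen acts on the protein, which these data do not measure. Egln1, the main prolyl hydroxylase that marks it for destruction, was at 131 and 80.0, 152 and 129, and 85.1 and 88.9 CPM, a log2 fold change of −0.74 ± 0.15 (SE, n = 2; adjusted p of 0.00219, edgeR), and leaving out dexamethasone replicate 1 took it just past the threshold.

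Dexamethasone alone changed no member at an adjusted p under 0.05, with 0.0155% of all genes tested higher and 0.0388% lower. At an unadjusted p under 0.05, 7 members were higher and 1 lower, beside 5.61% and 5.33% of all genes, and the groups did not overlap for 15 members higher and 2 lower in dexamethasone, beside 22.8% and 21.2% of all genes. The median log2 fold change was 0.29 over the members and 0.01 over all genes. The 7 higher were Slc2a1 at 0.74 ± 0.25, Aldoa at 0.63 ± 0.16, Pfkl at 0.59 ± 0.25, Pfkm at 0.59 ± 0.21, Pgam1 at 0.48 ± 0.18, Pkm at 0.43 ± 0.17 and Gpi1 at 0.36 ± 0.14 (log2 fold change ± SE, n = 2), each with an adjusted p of 0.279 or more by edgeR. They are a transporter and 6 enzymes that run from the second step of glycolysis to the last. None of the 7 tested hypoxia response members outside glycolysis was among them, which is near the 5.61% of all genes. All 7 had positive log2 fold changes, with a median of 0.19, and whether the sets of members differ was not tested. Hif1a was the lower gene, at −0.61 ± 0.17 (SE, n = 2).

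The calls in this contrast depended on which control replicate was kept. Replicate 2 was below replicate 1 in 23 of 30 members in control, in 28 in dexamethasone and in 22 in dexamethasone + EPC-EVs. In control the gap had a median of −0.49 on the log2 scale, against −0.04 over all genes tested in every comparison, while the replicates of dexamethasone and of dexamethasone + EPC-EVs differed by −0.16 and −0.19 in the median. Without control replicate 1 the fit called 19 of 31 members, 18 of them higher in dexamethasone and 1 lower, beside 9.25% of all genes higher and 6.8% lower. Without control replicate 2 it called 1 member, Aldoa, higher, beside 0.358% and 0.468% of all genes. In both fits the lone control library is assumed to vary like the dexamethasone libraries. DESeq2 called 2 members, Aldoa higher and Hif1a lower, beside 0.817% higher and 1.67% lower of the 5388 genes to which it gave an adjusted p. Without a filter on low counts edgeR called these and Slc2a1, higher, beside 0.604% and 0.654% of all genes.

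Of the 30 members tested between dexamethasone + EPC-EVs and control, 11 were lower and 4 higher at an adjusted p under 0.05 by edgeR, beside 17.2% and 19.1% of all genes. The median log2 fold change of the members, −0.38 in this fit, was 0.05 without control replicate 1 and −0.47 without control replicate 2. Without replicate 1 of dexamethasone + EPC-EVs the median was −0.35, and without replicate 2 of that group −0.30. The 2 comparisons share the vesicle libraries and are not independent. Lower were 6 of the 7 hypoxia response members outside glycolysis, with log2 fold changes of −3.39 ± 0.33 for Car9, −2.80 ± 0.36 for Ndrg1, −1.83 ± 0.31 for Bnip3, −1.06 ± 0.17 for P4ha1, −0.69 ± 0.23 for Mxi1 and −4.35 ± 1.12 for Ankrd37 (SE, n = 2). Also lower were Pdk1 at −1.64 ± 0.23, Gpi1 at −1.14 ± 0.17, Hk2 at −1.13 ± 0.27, Pfkp at −1.09 ± 0.23 and Gapdh at −0.82 ± 0.28. Without control replicate 1 Gapdh was at −0.26 and not called.

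Higher than control were Pfkfb4 at 1.53 ± 0.45, Pfkm at 1.03 ± 0.22, Ldha at 0.86 ± 0.25 and Pkm at 0.63 ± 0.20 (log2 fold change ± SE, n = 2). With the GC and length trend removed the split was 17 lower and 0 higher, beside 13.8% and 12.8% of all genes, and Pkm was −0.48. DESeq2 gave 10 lower and 6 higher, beside 17.9% and 19.1%, and the replicate block 10 lower and 7 higher, beside 16% and 18.6%. Of the 15 calls 8 were kept in every other fit, and those of Pfkfb4, Pfkm, Ldha, Pkm, Gapdh, Mxi1 and Ankrd37 were lost in at least 1. With the GC and length trend removed Pfkfb4 was at 0.81, Pfkm at 0.27, Ldha at 0.48 and Mxi1 at −0.45. Ankrd37 was at −4.06 without control replicate 2 and at −3.62 without replicate 2 of dexamethasone + EPC-EVs. The median over members was −0.38 and became 0.05 without control replicate 1. The glucose transporter Slc2a1, the hydroxylase Egln1, the mutase Pgam1, Pgk1, Ldhb and the lactate transporter Slc16a1, all lower with EPC-EVs than in dexamethasone, were not called against control, and whether their 2 differences are unequal was not tested.

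To show the promoters behind the members that fell and rose, the 250 bases before the RefSeq start site were searched on both strands for the core of the hypoxia response element, written as ACGTG or GCGTG, in the GRCm38.p6 assembly. Of 31 members with a promoter window, 23 (74.2%) held a core in the window nearest the GENCODE gene start. Of 27025 genes, 10431 (38.6%) held one in the first window listed for each. The windows were thus picked by different rules, and the members were chosen partly as hypoxia response genes, so these shares are not like for like. For Ldha, Ankrd37 and Hif1a the window lay 4329, 5857 and 6492 bases from the gene start. Among the members, 14 of the 16 lower with EPC-EVs than in dexamethasone, 2 of the 2 higher and 5 of the 11 not called held it. The ACGTG form is also the inner part of the E-box CACGTG, which other factors bind and which 5 of the 31 members and 6.05% of all genes held. A match is a string of letters and not a bound site, and the windows were not matched for base composition. The members shown are the 4 called ones with the largest falls at a mean of at least 10 CPM, among those with a window, and Ldha, which rose. Gapdh, which fell, and Pkm, which was not called, were chosen after their values were seen. Shown are 150 bases of each up to the start site, 5′ to 3′ on the strand of the gene, with each core in capitals. They lie at chr4:43506876-43507025 on the plus strand for Car9, chr7:138909507-138909656 on the minus strand for Bnip3, chr2:71873074-71873223 on the plus strand for Pdk1, chr7:34230337-34230486 on the minus strand for Gpi1, chr7:46845654-46845803 on the plus strand for Ldha, chr6:125165774-125165923 on the minus strand for Gapdh and chr9:59656426-59656575 on the plus strand for Pkm.
Car9: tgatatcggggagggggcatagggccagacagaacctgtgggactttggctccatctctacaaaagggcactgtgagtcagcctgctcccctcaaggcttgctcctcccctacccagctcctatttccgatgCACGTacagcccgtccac
Bnip3: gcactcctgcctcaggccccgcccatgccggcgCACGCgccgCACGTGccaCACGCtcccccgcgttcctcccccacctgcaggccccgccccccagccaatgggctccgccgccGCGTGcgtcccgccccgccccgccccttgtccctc
Pdk1: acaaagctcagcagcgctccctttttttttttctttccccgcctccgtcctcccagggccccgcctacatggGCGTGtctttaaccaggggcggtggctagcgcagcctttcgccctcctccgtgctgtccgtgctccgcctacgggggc
Gpi1: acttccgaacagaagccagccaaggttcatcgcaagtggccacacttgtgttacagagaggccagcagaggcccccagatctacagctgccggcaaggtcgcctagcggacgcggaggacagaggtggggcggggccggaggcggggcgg
Ldha: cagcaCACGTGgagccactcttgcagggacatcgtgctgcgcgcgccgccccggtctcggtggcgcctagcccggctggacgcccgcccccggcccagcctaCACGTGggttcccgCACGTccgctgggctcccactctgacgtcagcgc
Gapdh: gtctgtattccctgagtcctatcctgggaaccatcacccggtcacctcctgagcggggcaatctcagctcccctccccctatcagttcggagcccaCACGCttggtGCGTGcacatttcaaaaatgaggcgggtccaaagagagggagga
Pkm: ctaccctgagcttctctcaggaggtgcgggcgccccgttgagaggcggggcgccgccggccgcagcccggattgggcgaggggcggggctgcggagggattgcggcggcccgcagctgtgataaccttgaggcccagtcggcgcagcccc
Car9 holds a single core near its start site and Pdk1 a single one further up. Bnip3 and Ldha hold the most, Bnip3 with an E-box and Ldha with a pair of them, although Bnip3 fell and Ldha rose. An E-box holds the ACGTG core on both strands. Gapdh, which fell, holds 2, and Gpi1, which fell, and Pkm, which was not called, hold none in these bases. Ndrg1 ranked above Bnip3 by fall but had no promoter window, so Gpi1, the next by fall after Pdk1, is shown in its place.

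Other genes of these pathways, from lists drawn up beside the members, were tested in the same fits. Of 40 tested genes of the hypoxia response outside the members, 21 were lower and 2 higher with EPC-EVs than in dexamethasone. Of all genes tested, 18.9% were lower and 20.9% higher. The median log2 fold change of the 40 was −0.76, against 0.01 over all genes. By the rule for naming the lower ones include Ero1l, an oxidase for protein folding, at 512 and 418 CPM in control, 445 and 464 in dexamethasone and 40.2 and 51.6 in dexamethasone + EPC-EVs. The metallothionein Mt1 was at 867 and 390, 858 and 837, and 52.9 and 73.6 CPM, and the stem cell factor gene Kitl at 96.4 and 98.7, 82.4 and 65.2, and 17.1 and 12.5. In all 3 the vesicle libraries were below the other 4, with log2 fold changes of −3.35 ± 0.16, −3.79 ± 0.17 and −2.36 ± 0.23 (SE, n = 2). The 2 higher were Ddit4, an inhibitor of mTORC1, at 1.06 ± 0.20, and the lysyl hydroxylase Plod1, at 1.01 ± 0.19. The call of Ddit4 was lost with the GC and length trend removed, at 0.31. That of Plod1 was lost with all 6 libraries in a fit, where its log2 fold change was 1.03.

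**Figure D4:**
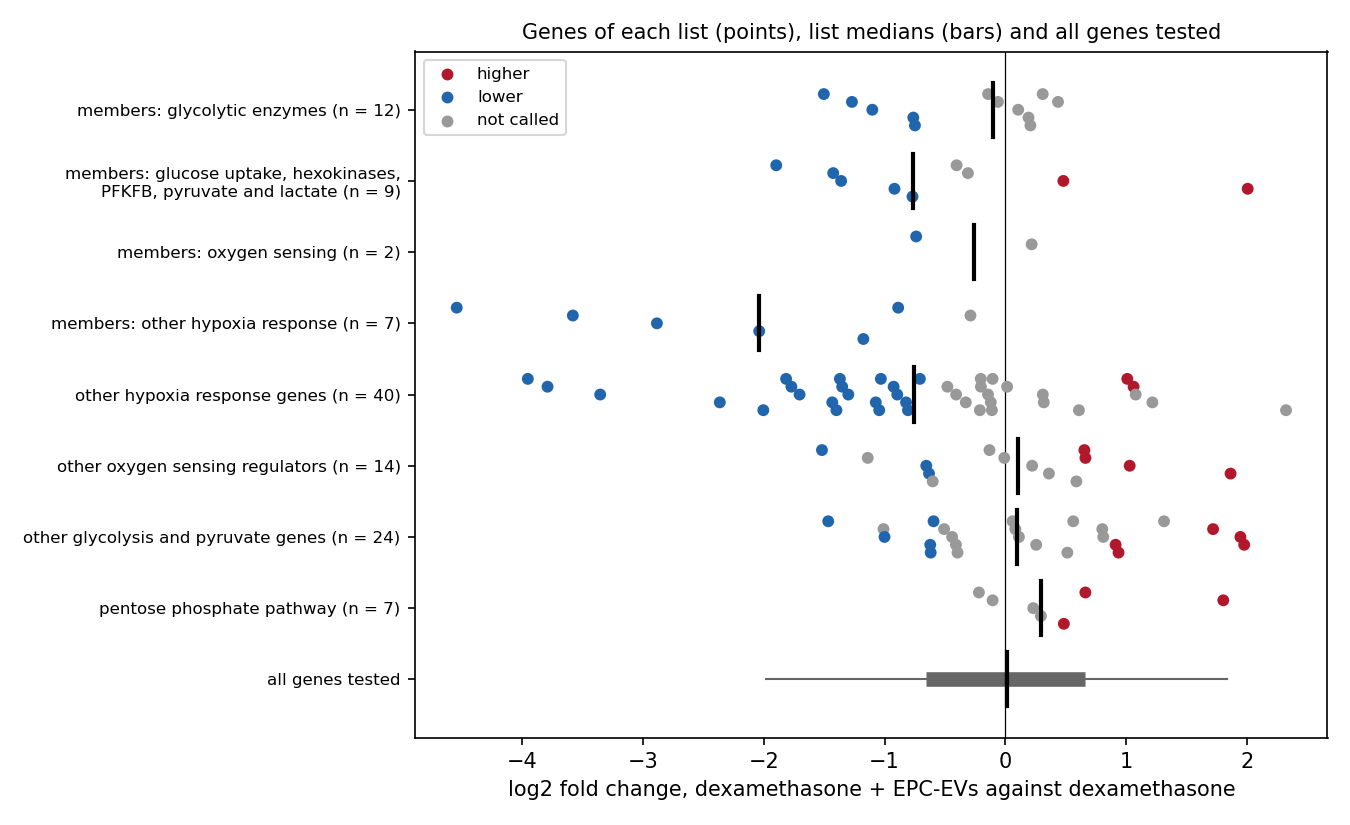
Log2 fold change of dexamethasone + EPC-EVs against dexamethasone (horizontal axis) for each gene of the members' groups and of the other lists, coloured by call; black bars are medians, and the bottom row gives the 5th, 25th, 75th and 95th percentiles of all genes tested. The 2 hypoxia response lists reach to the left of the 5th percentile, −1.98, and the other lists plotted do not, and the list of mitochondrially encoded genes, which is not plotted, lies beyond it as well, with a median of −3.94.

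Of 14 tested regulators of oxygen sensing outside the members, 4 were higher and 3 lower, shares near the 20.9% and 18.9% of all genes. Egln2, another prolyl hydroxylase, was at 15.6 and 5.97 CPM in control, 16.0 and 14.9 in dexamethasone and 52.7 and 63.5 in dexamethasone + EPC-EVs, which is 1.87 ± 0.22 on the log2 scale (SE, n = 2), and Hif1an, which hydroxylates the HIF transactivation domain, rose by 0.66 ± 0.19. Arnt, the stable partner of the alpha subunits, and Cited2, a competitor for their coactivator, fell by 0.63 and 0.65 on the log2 scale, and Eloc, a subunit of the ligase that tags them, fell by 1.52. Of these 5, the calls of Hif1an, Arnt, Cited2 and Eloc were lost under at least 1 alternative. With the GC and length trend removed Eloc was at −0.55 and Hif1an at 0.47. In the fits with a library left out that lost their calls, Hif1an was at 0.56, Arnt at −0.46 and Cited2 from −0.49 to −0.71.

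Of 24 tested genes of glycolysis and pyruvate metabolism outside the members, 5 were higher and 5 lower, again near the shares of all genes, and the median change was 0.10 on the log2 scale. Bsg, the chaperone of the lactate transporters, was at 1101 and 756 CPM in control, 1291 and 1113 in dexamethasone and 451 and 448 in dexamethasone + EPC-EVs, or −1.47 ± 0.12 on the log2 scale (SE, n = 2). Bpgm, which diverts bisphosphoglycerate, and the pyruvate dehydrogenase subunit Dlat and phosphatase Pdp2 rose by 1.95 ± 0.26, 0.94 ± 0.19 and 1.98 ± 0.24. The kinase Pdk2, like Pdk1, was lower, at 28.3 and 36.2 CPM in control, 36.0 and 33.4 in dexamethasone and 18.4 and 17.4 in dexamethasone + EPC-EVs. In the pentose phosphate pathway, which branches from glucose phosphate and yields NADPH, 3 of 7 tested genes were higher and none lower, beside 20.9% and 18.9% of all genes: Pgls, Taldo1 and Pgd, at 1.81 ± 0.21, 0.66 ± 0.20 and 0.48 ± 0.15, of which the calls of Taldo1 and Pgd were lost in at least 1 other fit. In dexamethasone against control none of the 83 tested genes of these 4 lists was called by edgeR, while 12 were higher and 4 lower at an unadjusted p under 0.05, beside 5.61% and 5.33% of all genes. DESeq2 called 3 of them, Hmox1 and Pgd higher and Bhlhe41 lower, beside the 0.817% and 1.67% given above. The 30 tested members had a median GC content of 52.4% against 48.8% over all genes tested, and those called lower 51.1% against 54.8% for the other 13.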

How the data were processed

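Total RNA of MC3T3-E1 Subclone 14 cells was sequenced in 6 libraries; how messenger RNA was selected is not given in the sources used here. The authors aligned the reads to GRCm38 with HISAT2, counted them on genes with HTSeq 0.6.1 and deposited the counts without normalization, with a gene FPKM beside them. The study's methods describe this FPKM as summed over transcripts, and for the members with at least 10 counts in a library it equals the count divided by the library total and a single length per gene. The deposited transcript FPKM covers chromosome 1, where no member lies, and was not used.

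Each comparison was fitted to the counts of its 4 libraries in edgeR 4.0.16 under R 4.3.3 (TMM normalization, filterByExpr, robust dispersions, quasi-likelihood test), with Benjamini-Hochberg adjustment over all genes tested and calls at an adjusted p under 0.05. The steps were tested on simulated data. CPM are scaled by TMM over the 6 libraries, and SE is the log2 fold change divided by the root of the F statistic, from which the 95% intervals follow by a normal approximation. FPKM served for levels between genes. Coordinates are those of GENCODE vM21, matched for 21646 of 21686 genes, and promoters those of RefSeq. Alternatives were other normalizations, filters and thresholds, DESeq2 1.42.0, all 6 libraries in a fit, the replicate number as a block, a loess correction (span 0.4) for GC content and transcript length, and leaving out each library. The members and lists were chosen with earlier results of these data known. Named are all members by role and, per other list and comparison, up to 3 called genes in each direction with the largest change, at a mean of at least 10 CPM and without overlap of groups. Those of the other lists that the text describes, and Bhlhe41 and Hmox1, were picked with their values in view. Where the labels name replicates without separate cultures, p-values measure the spread between these samples.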

Additional observations from a re-analysis of the deposited data

How the results depend on the processing

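In dexamethasone + EPC-EVs against dexamethasone the count of 19 called members stayed between 14 and 23 under the other normalizations, filters and fits and without each library, and the median log2 fold change of the members stayed between −0.88 and −0.63. The thresholds of the study's methods, an unadjusted p under 0.05 with a log2 fold change beyond 1.5, left 7, of which 6 were lower. The shares of all genes under these thresholds were not counted. Egln1, Pfkfb4, Pgk1, Ldha, Ldhb, Slc16a1 and Ankrd37 lost their call in at least 1 fit. Removing the GC and length trend turned Pfkm to −0.0295, Tpi1 to −0.0871, Eno1 to −0.60, Eno2 to −0.27 and Pkm to −0.52, and made Hk1, Pfkl, Aldoa, Pfkfb3, Eno1, Pkm and Vegfa lower calls. With each library left out, Hif1a ran from −0.65 to 0.77, Pfkl from −0.21 to 0.13 and Eno1 from −0.00802 to 0.25.

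In dexamethasone against control no called member became 3 without a filter on low counts, 2 with DESeq2, and 0 to 19 with a library left out, and 10 of 30 members changed direction in at least 1 fit. In dexamethasone + EPC-EVs against control the study's thresholds left 6 of 15 and an adjusted p under 0.01 left 8, again without the shares of all genes. The GC and length correction turned Pkm to −0.48, and the median of the members ran from −0.47 to 0.0477 with a library left out. The cause of these shifts was not tested. A group left with 1 library is assumed to vary like the other.

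The labels number the replicates, but the deviations of same-numbered libraries correlated at 0.14, −0.0022 and 0.037 over the 3 comparisons, with 2 pairs each, so the numbers were not taken as pairs. With the replicate block the calls were 0, 19 and 17, the last beside 16% of all genes lower and 18.6% higher. Shares by counts in place of FPKM moved the levels of the phosphofructokinases most, Pfkp in control from 34.3% to 60.8%. With 2 libraries a group their number limits the precision. The sparsest tested members, Ankrd37 and Pfkfb4, also rest on few counts, and Pfkfb4 had 44 and 4 counts in the dexamethasone replicates.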
